A study of Mus musculus with 9 samples.

Results

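The genes described here are 54 genes of the cell division cycle, chosen by name. Of these, 11 are grouped here as G1 genes (the D and E cyclins, their kinases and E2F factors). The others are 18 genes of DNA replication, 21 of mitosis and 4 inhibitors of cyclin-dependent kinases. Each gene was read from the probe set annotated with its symbol, or from the brighter one where a gene had more than 1. Of the 54, 52 were measured among 22180 genes in all. Ccnb1, which encodes cyclin B1, and Ccne2, which encodes cyclin E2, had no probe set annotated to them alone and were not analysed here.

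The arrays came from mouse T cells cultured to become Th17 cells, T helper cells that secrete IL-17. Naive CD4+ T cells (CD4+CD25-CD44lowCD62Lhigh) were sorted from spleen and stimulated for 60 h on plate-bound antibodies to CD3 and CD28 (10 µg/ml each), with TGF-β1 at 1 ng/ml, IL-6 at a labelled 30 µg/ml, and neutralising antibodies at 2 µg/ml against each of IL-4 and IFN-γ. The donors were SRG3 cKO, RORgt KO and WT mice. SRG3 cKO is a conditional knockout of Smarcc1, whose product scaffolds the chromatin remodeller Swi/Snf. RORgt KO mice lack the transcription factor that directs Th17 differentiation. Each genotype had 3 arrays, which makes 9. All 3 genotypes received the same culture. The Cre driver of the SRG3 cKO mice and the age of the mice are not stated in the labels. Replicates are labelled as biological, and as no mouse or culture is named, a p-value here reflects only how these arrays vary.

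Cells leave G1 when D cyclins with CDK4 and CDK6, and then E cyclins with CDK2, phosphorylate the retinoblastoma protein and its relatives and so release E2F transcription factors. E2F factors turn on the genes of replication: the MCM helicase and the proteins that load and start it, the sliding clamp PCNA and the polymerases. Mitotic genes follow later, driven by MYB and FOXM1 complexes through promoter elements called CHR, often beside CCAAT boxes that bind NF-Y. Naive T cells rest outside the cycle, and division after antigen receptor stimulation accompanies their differentiation.

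The promoters of the replication and mitosis genes differed in the motifs they held. RefSeq promoter windows (build GRCm38.p6, 250 bases before to 50 bases after the annotated start, 300 bases each) matched 42 of the 54 genes. The search covered both strands for an E2F motif (TTCCCGC or else TTGGCGC or else TTGCCGC or else TTCGCGC), a CHR motif (TTTGAA or TTCGAA) and the CCAAT box. Of 14 replication promoters 10 (71.4%) held the E2F motif, against 3 of 16 (18.8%) mitosis promoters and 10.9% of all 27025 windows. The CHR motif was in 12 of 16 mitosis promoters (75.0%), against 4 of 14 replication promoters (28.6%) and 21.7% of all windows. CCAAT boxes were in 14 of the mitosis promoters and 11 of the replication promoters, where 41.1% of all windows held one. Of 8 G1 promoters 3 held the E2F motif and 2 the CHR motif, and of the 4 inhibitor promoters 1 held the E2F motif and 0 the CHR motif. A match is a description of letters and shows no binding.

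**Figure D1:**
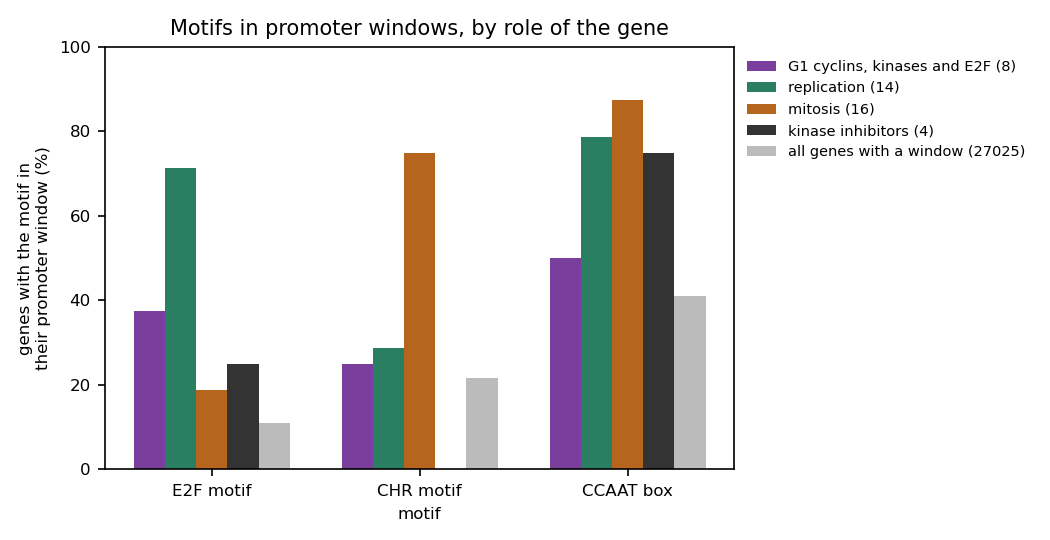
Percent of RefSeq promoter windows that held an E2F motif, a CHR motif or a CCAAT box, for each role among the 42 genes with a window and for all 27025 windows. Replication promoters stand out for the E2F motif (71.4%) and mitosis promoters for the CHR motif (75.0%).

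5 windows are shown as examples of these arrangements, in genes whose array values are given below: Plk1 and Ccnb2 for mitosis, Mcm3 and Mcm5 for replication, and E2f8, which holds both motifs. Each runs 5′ to 3′ on the strand of its gene, and capitals mark every E2F, CHR and CCAAT match.
Plk1 (chr7:122159185-122159484, plus strand): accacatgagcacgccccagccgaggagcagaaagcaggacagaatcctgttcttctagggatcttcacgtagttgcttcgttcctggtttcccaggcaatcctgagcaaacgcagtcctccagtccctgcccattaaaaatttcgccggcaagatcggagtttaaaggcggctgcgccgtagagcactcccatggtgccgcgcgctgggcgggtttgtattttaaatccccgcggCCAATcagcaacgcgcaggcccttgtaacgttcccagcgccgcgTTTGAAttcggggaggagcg
Ccnb2 (chr9:70421505-70421804, minus strand): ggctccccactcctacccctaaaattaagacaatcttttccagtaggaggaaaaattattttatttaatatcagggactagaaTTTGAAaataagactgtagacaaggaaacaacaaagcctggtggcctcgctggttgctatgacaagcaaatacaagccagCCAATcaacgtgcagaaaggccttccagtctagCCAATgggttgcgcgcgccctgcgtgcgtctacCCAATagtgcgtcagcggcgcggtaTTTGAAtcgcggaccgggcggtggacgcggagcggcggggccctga
Mcm3 (chr1:20820263-20820562, minus strand): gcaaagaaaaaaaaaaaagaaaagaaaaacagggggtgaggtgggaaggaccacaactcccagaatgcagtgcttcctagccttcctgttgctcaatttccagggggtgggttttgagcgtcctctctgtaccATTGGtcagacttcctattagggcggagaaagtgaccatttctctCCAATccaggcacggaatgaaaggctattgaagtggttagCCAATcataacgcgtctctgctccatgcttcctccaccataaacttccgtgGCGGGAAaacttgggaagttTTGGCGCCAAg
Mcm5 (chr8:75109259-75109558, plus strand): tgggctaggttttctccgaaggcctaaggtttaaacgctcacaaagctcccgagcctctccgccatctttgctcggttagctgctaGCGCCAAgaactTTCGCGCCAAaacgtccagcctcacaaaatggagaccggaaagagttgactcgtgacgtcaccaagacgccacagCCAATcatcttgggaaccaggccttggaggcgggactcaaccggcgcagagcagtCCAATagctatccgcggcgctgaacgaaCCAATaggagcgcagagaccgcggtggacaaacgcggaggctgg
E2f8 (chr7:48881547-48881846, minus strand): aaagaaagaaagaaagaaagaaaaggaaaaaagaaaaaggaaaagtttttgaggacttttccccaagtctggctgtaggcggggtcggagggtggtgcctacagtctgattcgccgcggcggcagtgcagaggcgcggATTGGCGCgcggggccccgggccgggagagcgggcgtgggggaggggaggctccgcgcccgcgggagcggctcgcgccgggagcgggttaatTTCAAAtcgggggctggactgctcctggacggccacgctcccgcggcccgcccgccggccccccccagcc
In the Plk1 window the CHR motif began 31 bases after the start and a CCAAT box 14 bases before it. The Ccnb2 window held CHR motifs 167 bases before and 5 bases after the start, with CCAAT boxes 87, 54 and 21 bases before it. Mcm3 had its E2F matches after the start, at 20, 40 and 43 bases, the last pair overlapping on opposite strands, whereas those of Mcm5 lay 164, 152 and 149 bases before it. In E2f8 the E2F motif, 111 bases before the start, overlapped a CCAAT box on the other strand.

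All values are log2 probe set signals as deposited, so only changes of one gene between arrays are compared, and array medians lay between 7.12 and 7.14. Smarcc1 had 8.47, 8.79 and 8.62 in SRG3 cKO arrays, against 10.12, 10.32 and 10.39 in WT arrays, and fell by 1.65 (limma adjusted p = 0.000207). The same check was not made for the RORgt KO labels. CD4 T cell markers had array means of 11.04 to 11.19 in SRG3 cKO, 11.01 to 11.10 in RORgt KO and 10.91 to 11.04 in WT cells, and the 5 Th17 markers had 9.38 to 9.55 in SRG3 cKO, 8.01 to 8.21 in RORgt KO and 10.05 to 10.34 in WT cells. Array means of 6 B cell markers were 7.44 to 7.51 in SRG3 cKO, 7.52 to 7.63 in RORgt KO and 7.31 to 7.67 in WT cells, and those of 8 myeloid markers were 6.84 to 6.95 over all 9 arrays. Those of 6 markers of CD8, NK and γδ T cells were 6.94 to 6.97 in SRG3 cKO, 7.11 to 7.18 in RORgt KO and 6.98 to 7.03 in WT cells. In that list Klrd1 was 0.91 higher in RORgt KO than in WT cells (limma adjusted p = 0.0202), and the part of other cells in the results was not tested. In a principal component analysis WT array 1 stood, on the leading component (28.8% of all variance), at −1.38, away from −10.48 and −11.80 for the other WT arrays. Of the 52 genes, 17 had exactly equal values in at least 2 arrays, as had 56.0% of all genes, so the deposited values do not vary freely and some spreads are 0.

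In SRG3 cKO cells the genes of the cell cycle lay close to their WT levels. In SRG3 cKO against WT cells 0 of the 52 genes passed the test across all genes (limma, adjusted p under 0.05), where 0.523% of all genes did. Among the 52, 3 had an unadjusted p under 0.05, 1 higher (6.04% of all genes) and 2 lower (5.14% of all genes). The lowest values were those of E2f8, Ccne1 and Plk1, between −0.19 and −0.14, and the highest were those of the inhibitor genes Cdkn1a, at 0.39, and Cdkn1b, at 0.20. The 95% intervals of 51 of the 52 genes lay within 0.5 of 0 on the log2 scale, the exception being Cdkn1a. A bulk array cannot tell fewer dividing cells from less of these RNAs per cell.

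The genes of G1 had a median change of −0.05 in SRG3 cKO against WT cells, with 7 of 10 below 0, where all genes had −0.01 and 53.6% below 0. E2f8 encodes an atypical E2F that represses E2F targets. It had 9.32, 9.50 and 9.48 in SRG3 cKO arrays, against 9.51, 9.72 and 9.64 in WT arrays. All SRG3 cKO arrays lay below all WT arrays, by a margin of less than the spread within either group, and the change was −0.19 (SE 0.07, limma adjusted p = 0.328). Ccne1, for cyclin E1, had 9.18, 9.51 and 9.46 in SRG3 cKO arrays, against 9.39, 9.76 and 9.57 in WT arrays, and these overlapped. Its change was −0.19 (SE 0.11, limma adjusted p = 0.588), and −0.08 without SRG3 cKO array 1. Cdk6, a partner of the D cyclins, had 10.74, 10.58 and 10.54 in SRG3 cKO arrays, against 10.77, 10.67 and 10.79 in WT arrays. Its change of −0.12 (SE 0.07) did not pass either (limma adjusted p = 0.535). The other 7 G1 genes lay between −0.05 and 0.09.

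The 18 replication genes had a median change of −0.02 in SRG3 cKO against WT cells, 11 of them below 0, and between −0.04 and 0.00 when each array was left out in turn. Cdc6, which loads the MCM helicase onto origins, was the lowest, with 9.17, 9.48 and 9.35 in SRG3 cKO arrays, against 9.36, 9.59 and 9.39 in WT arrays. The groups overlapped, and the change was −0.11 (SE 0.08, limma adjusted p = 0.665), and −0.03 without SRG3 cKO array 1. Rfc3, a subunit of the complex that loads PCNA, was at −0.08 (SE 0.07) with overlapping arrays, and at −0.03 without WT array 3. Mcm7, Pold1 and Pole, for a helicase subunit and the catalytic subunits of polymerases δ and ε, were above WT in every SRG3 cKO array, by 0.06, 0.07 and 0.08. Mcm2, another helicase subunit, was below WT in every SRG3 cKO array, by a mean change of −0.06. None of these 4 passed the test (limma adjusted p between 0.502 and 0.632).

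The 20 mitosis genes had a median change of −0.03 in SRG3 cKO against WT cells, 12 of them below 0. Plk1 encodes the kinase that drives centrosome maturation and spindle assembly. It had 10.68, 10.59 and 10.70 in SRG3 cKO arrays, against 10.77, 10.80 and 10.81 in WT arrays. The groups did not overlap, and the change was −0.14 (SE 0.04), a 1.10-fold difference that had the smallest adjusted p among the 52 genes (limma adjusted p = 0.237). Ccnb2, for cyclin B2, lay on the other side, with 9.98, 9.63 and 9.96 in SRG3 cKO arrays, against 9.80, 9.55 and 9.72 in WT arrays. Its groups overlapped, and its change was 0.16 (SE 0.10, limma adjusted p = 0.572), with 0.09 to 0.28 when each array was left out in turn. Mki67, the gene of the proliferation antigen Ki-67, was at −0.05 and Top2a, for the topoisomerase that untangles chromosomes, at −0.07, both with standard errors of 0.04.

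The remaining mitosis genes lay between −0.08 and 0.06 in SRG3 cKO against WT cells. The checkpoint kinase genes Bub1 and Bub1b were at 0.03 and 0.04, and Cdk1, for the kinase that starts mitosis, and Ccna2, for its partner cyclin A2, were at −0.07 and −0.08. Foxm1, a transcription factor of mitotic genes, had 8.47, 8.65 and 8.55 in SRG3 cKO arrays, 8.50, 8.38 and 8.50 in RORgt KO arrays, and 8.50, 8.62 and 8.45 in WT arrays, and overlapped in each comparison. Its change against WT was 0.04 in SRG3 cKO and −0.06 in RORgt KO cells (SE 0.06 in both). Birc5 and Aurkb, 2 subunits of the chromosomal passenger complex, were at −0.04 and 0.01 in SRG3 cKO cells, the kinetochore genes Cenpe and Cenpf at −0.03 and 0.03, and the spindle genes Kif11 and Tpx2 at 0.02 and −0.02. Ube2c, for the ubiquitin-conjugating enzyme of the anaphase-promoting complex, was at −0.02.

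Counted by overlap over the whole set, 5 of the 52 genes had every SRG3 cKO array above every WT array, where 7.04% of all genes did, and 7 had every SRG3 cKO array below, where 6.56% of all genes did. The higher ones were Cdkn1b, Nusap1, Mcm7, Pold1 and Pole, and the lower ones were E2f8, Aurka, Cdk1, Kif20a, Plk1, Top2a and Mcm2. Apart from Cdkn1b, E2f8 and Plk1, their changes were under 0.1 in size. Aurka, for the spindle pole kinase Aurora A, read 9.70 in all 3 SRG3 cKO arrays, an exact tie, against 9.71, 9.71 and 9.78 in WT arrays, for a change of −0.04. Of the 52 genes, 3 had an unadjusted p under 0.05 (5.77%, against 11.2% of all genes). This count was 7 without WT array 1 (13.5%, against 14.1% of all genes in that fit) and 5 without SRG3 cKO array 2 (9.62%, against 10.4%). It was 2 without SRG3 cKO array 1 (3.85%, against 8.41%) and 6 with the replicate number as a block (11.5%, against 13.4%), where 0 genes passed after adjustment. The share was below that of all genes in each of these fits.

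**Figure D2:**
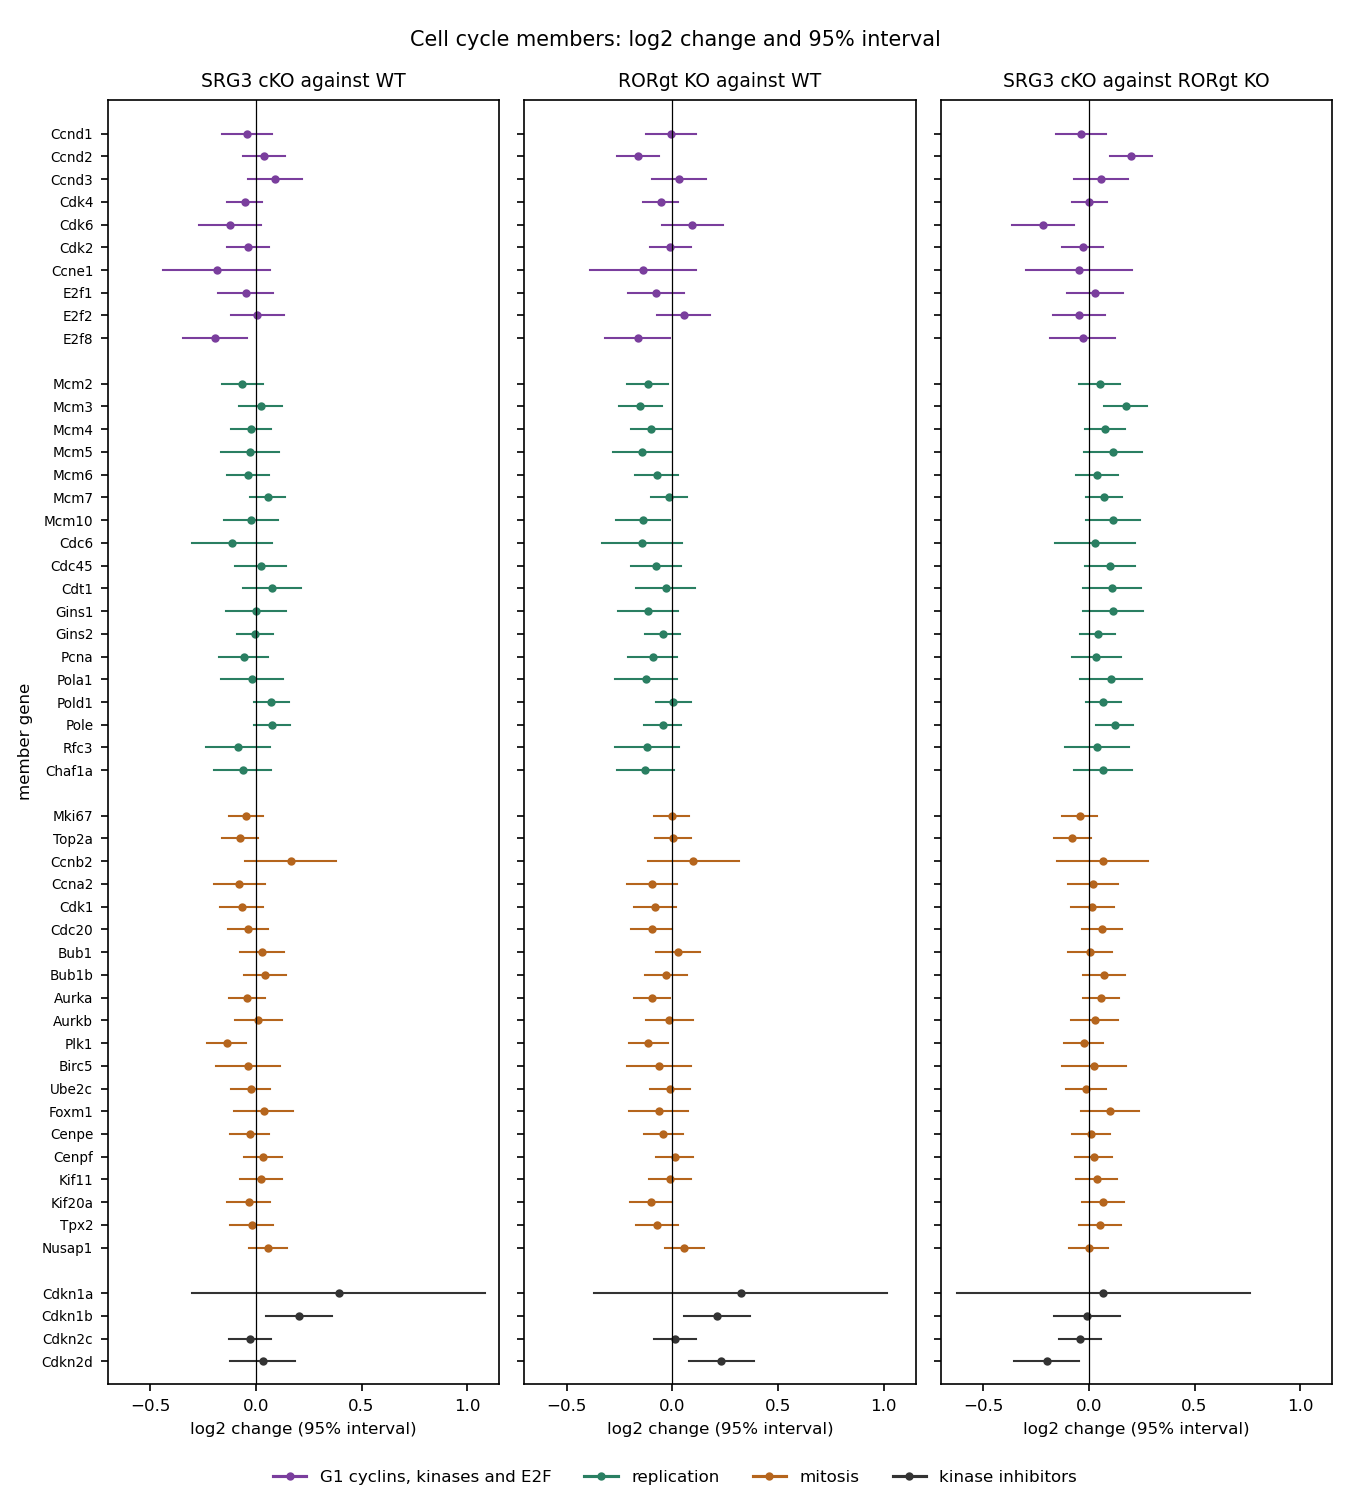
Log2 change and 95% interval of each of the 52 genes by role, in SRG3 cKO against WT, RORgt KO against WT and SRG3 cKO against RORgt KO cells, from the limma fit. Every interval but that of Cdkn1a lies within 0.5 of 0, and in RORgt KO against WT cells 17 of the 18 replication genes lie below 0.

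Loss of RORgt went with slightly lower values of replication genes, none of which passed the test gene by gene. In RORgt KO against WT cells 0 of the 52 genes passed (limma, adjusted p under 0.05), where 1.04% of all genes did. An unadjusted p under 0.05 was reached by 11 genes on the lower side (21.2% of the 52, against 6.64% of all genes) and by 2 on the higher side (against 6.08% of all genes). Replication genes had a median change of −0.11, with 17 of 18 below 0, where all genes had −0.00 and 51.6% below 0. Mitosis genes had −0.04 and G1 genes −0.03, with 15 of 20 and 7 of 10 below 0. The 4 inhibitors among the 52 genes were all above 0, with a median of 0.22. This comparison uses the same 3 WT arrays as the one above.

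Among G1 genes, Ccnd2 encodes cyclin D2, the D cyclin induced by antigen and cytokine signals in lymphocytes. It had 11.54, 11.56 and 11.56 in RORgt KO arrays, against 11.68, 11.78 and 11.69 in WT arrays. Every RORgt KO array was below every WT array, and the change was −0.16 (SE 0.04, limma adjusted p = 0.16), a 1.12-fold difference. E2f8 had 9.47, 9.39 and 9.52 in RORgt KO arrays, which overlapped the WT arrays given above, with a change of −0.16 (SE 0.07, limma adjusted p = 0.356). Ccne1 was at −0.14 (SE 0.11) and Cdk6 at 0.10 (SE 0.07). The remaining 6 G1 genes, which include E2f1, E2f2 and Cdk4, lay between −0.08 and 0.05.

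Some subunits of the MCM helicase, which unwinds DNA at origins, were among the lowest replication genes in RORgt KO cells. Mcm3 had 11.12, 11.00 and 11.11 in RORgt KO arrays, against 11.28, 11.19 and 11.20 in WT arrays. The groups did not overlap, and the change was −0.15 (SE 0.05, limma adjusted p = 0.21), or 1.11-fold. Mcm5 had 10.81, 10.56 and 10.75 in RORgt KO arrays, against 10.88, 10.84 and 10.83 in WT arrays. They did not overlap, although RORgt KO array 2 stood well below the other 2 and array 1 only just below a WT array. The change was −0.14 (SE 0.06, limma adjusted p = 0.369), and −0.07 without RORgt KO array 2. Mcm2 had 10.44, 10.29 and 10.40 in RORgt KO arrays, against 10.48, 10.50 and 10.49 in WT arrays, without overlap, and its change was −0.12 (SE 0.04, limma adjusted p = 0.307). Mcm4 and Mcm10, the second a replication factor outside the helicase ring, were at −0.10 and −0.14 with overlapping arrays. Of the other subunits, Mcm6 was at −0.07 and Mcm7 at −0.02. Cdc6 was at −0.14 (SE 0.08) and Pcna at −0.09 (SE 0.05).

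The remaining replication genes lay between −0.13 and 0.00. Gins1 and Gins2 encode parts of GINS, which joins Cdc45 and the MCM ring in the active helicase, and they were at −0.11 (SE 0.06) and −0.05 (SE 0.04), with Cdc45 at −0.08 (SE 0.05). Pola1, for the catalytic subunit of the priming polymerase α, had 9.85, 9.72 and 9.88 in RORgt KO arrays, against 9.82, 10.05 and 9.94 in WT arrays, and was at −0.12 (SE 0.07). Chaf1a, a chaperone subunit that places histones on new DNA, had 8.92, 8.87 and 9.02 in RORgt KO arrays, against 8.97, 9.13 and 9.10 in WT arrays, and was at −0.13 (SE 0.06, limma adjusted p = 0.417). The arrays overlapped in each of these 5 genes. Cdt1, a partner of Cdc6 in loading, was at −0.03. Pole was at −0.05 and Pold1, the single replication gene not below 0, at 0.00.

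In mitosis the lowest changes were smaller in size, but non-overlap was no rarer than in replication. Every RORgt KO array lay below every WT array in 6 of 20 mitosis genes (30.0%) and 4 of 18 replication genes (22.2%), against 7.35% of all genes. Plk1 had 10.70, 10.64 and 10.70 in RORgt KO arrays, all below the WT arrays given above, with a change of −0.11 (SE 0.04, limma adjusted p = 0.287). Kif20a, a kinesin of cytokinesis, had 10.20, 10.04 and 10.14 in RORgt KO arrays, against 10.21, 10.21 and 10.24 in WT arrays. These did not overlap, and the change was −0.10 (SE 0.04, limma adjusted p = 0.393), and −0.06 without RORgt KO array 2. Aurka, Ccna2 and Cdc20, an activator of the anaphase-promoting complex, were also at −0.10, and Cdk1 was at −0.08, all without overlap. Of the 5 mitosis genes above 0, Ccnb2 was the highest, at 0.10 (SE 0.10). Mki67 and Top2a were at −0.00 and 0.00.

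Over the 52 genes, 11 had every RORgt KO array below every WT array (21.2%, against 7.35% of all genes) and 2 had every RORgt KO array above (against 6.9% of all genes). The 11 were Ccnd2, Aurka, Ccna2, Cdc20, Cdk1, Kif20a, Plk1, Cdc6, Mcm2, Mcm3 and Mcm5, and the 2 were Cdkn1b and Cdkn2d. An unadjusted p under 0.05 was reached by 13 of the 52 in either direction (25.0%, against 12.7% of all genes). With single arrays left out this ranged from 4 without RORgt KO array 2 (7.69%, against 8.70% of all genes in that fit) to 18 without WT array 1 (34.6%, against 16.0%). It was 5 without WT array 3 (9.62%, against 9.54%), 6 without WT array 2 (11.5%, against 9.5%) and 14 without RORgt KO array 3 (26.9%, against 13.9%). Quantile normalization gave 7 (13.5%, against 12.6%) and the replicate number as a block 15 (28.8%, against 15.1%). The share of the 52 genes thus stood near that of all genes in 4 of these fits. RORgt KO array 2 had the lowest mean of the 9 arrays over the G1, the replication and the mitosis genes. When each array was left out in turn the replication median was between −0.13 and −0.07, lowest in size without WT array 2, the mitosis median between −0.06 and −0.00 and the G1 median between −0.05 and −0.01, both lowest in size without RORgt KO array 2.

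Of the 52 genes, those with the E2F motif in their promoter window had a median change of −0.08 in RORgt KO against WT cells (16 measured genes, 13 below 0). Those with the CHR motif had −0.02 (18 genes, 13 below 0), and 6 genes with both motifs are in both counts. The 13 with neither motif and all 41 with a window each had −0.04. Of the 16 genes with the E2F motif 10 were replication genes, so the motif was not separated from the role. Across all measured genes with a window, the 2328 with the E2F motif had a median of −0.01 and 58.0% below 0, the 3301 with the CHR motif had 0.00 and 49.7%, and all 16990 had −0.00 and 51.7%. Mcm3 and Mcm5, whose windows each hold 3 E2F matches, some of them overlapping, were among the lowest. Other genes with the motif stayed near 0, such as Mcm7 at −0.02 and Pold1 at 0.00. Mcm2 and Mcm10, whose windows lack the motif, were at −0.12 and −0.14. These are descriptions over genes that share arrays, with no test.

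Of the 4 inhibitors of cyclin-dependent kinases, 3 were above 0 in SRG3 cKO and 4 in RORgt KO cells against WT, and none passed the test. Cdkn1b, for p27, had 8.94, 8.64 and 8.91 in SRG3 cKO arrays, 8.83, 8.84 and 8.85 in RORgt KO arrays, and 8.63, 8.62 and 8.62 in WT arrays. Both knockouts lay above all WT arrays, SRG3 cKO array 2 only just. The change was 0.20 in SRG3 cKO (SE 0.07, limma adjusted p = 0.315) and 0.21 in RORgt KO cells (SE 0.07, limma adjusted p = 0.242). Without SRG3 cKO array 2 these adjusted p-values were 0.0316 and 0.042, so that array decided whether Cdkn1b passed. The fit pools the spread of all genotypes, and the SD was 0.165 in SRG3 cKO, 0.010 in RORgt KO and 0.009 in WT arrays. The SE for RORgt KO against WT cells thus includes the SRG3 cKO spread. Over all alternatives the adjusted p in SRG3 cKO cells was 0.0316 to 0.619.

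Cdkn1a, for p21, had 11.00, 10.02 and 10.28 in SRG3 cKO arrays, 10.80, 10.20 and 10.09 in RORgt KO arrays, and 10.65, 9.69 and 9.79 in WT arrays. Array 1 was the highest in each genotype, by 0.85, 0.65 and 0.91 over the mean of the other 2 arrays of SRG3 cKO, RORgt KO and WT. The changes were 0.39 in SRG3 cKO (SE 0.31, 95% interval −0.30 to 1.08, limma adjusted p = 0.687) and 0.32 in RORgt KO cells (SE 0.31, 95% interval −0.37 to 1.01, limma adjusted p = 0.729), both within the spread of the arrays. The SRG3 cKO value was 0.11 without SRG3 cKO array 1 and 0.69 without WT array 1, and the RORgt KO value was 0.11 without RORgt KO array 1 and 0.63 without WT array 1. With the replicate number as a block the SE was 0.08, and limma's adjusted p-values were 0.0733 and 0.107, the lowest of ranges that reached 0.954 and 0.952 over the alternatives. The labels do not say whether the arrays numbered 1 share a batch or a day.

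Cdkn2d, for p19, had 8.87, 8.72 and 8.77 in SRG3 cKO arrays, 9.06, 9.03 and 8.87 in RORgt KO arrays, and 8.87, 8.66 and 8.73 in WT arrays. Its RORgt KO arrays lay above the WT arrays, array 3 only just, and the change was 0.23 (SE 0.07, limma adjusted p = 0.201). Its limma adjusted p was 0.0859 with the replicate number as a block. In SRG3 cKO cells the change was 0.03 (SE 0.07). Cdkn2c, for p18, was at −0.03 in SRG3 cKO and 0.01 in RORgt KO cells against WT.

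**Figure D3:**
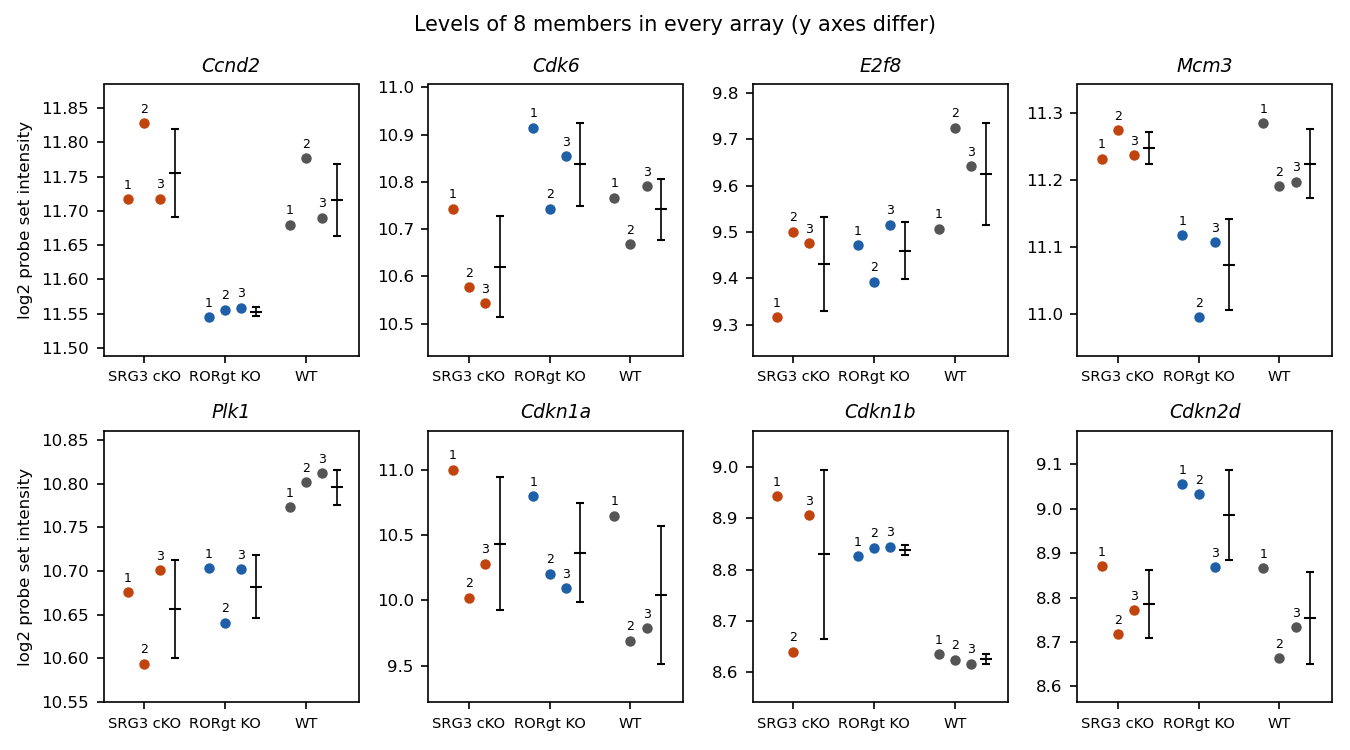
Log2 values of 8 genes in each array (points, numbered by replicate) with the mean and SD of each genotype (bar and whiskers, n = 3), SRG3 cKO left, RORgt KO middle and WT right. Cdkn1a is highest in array 1 of every genotype, and Ccnd2 and Mcm3 are lower in all 3 RORgt KO arrays than in any other array.

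Set against each other, the knockouts held the replication genes on one side, and again no gene passed. The largest values were those of Cdk6, at −0.22, and Ccnd2, at 0.20. In SRG3 cKO against RORgt KO cells 0 of the 52 genes passed (limma, adjusted p under 0.05), where 1.28% of all genes did. The unadjusted p was under 0.05 for 3 higher genes (5.77% of the 52, against 5.57% of all genes) and 2 lower genes (3.85%, against 5.5% of all genes). Every SRG3 cKO array exceeded every RORgt KO array in 11 genes (21.2%, against 7.79% of all genes), 8 of them replication genes, and the reverse held for 2 (against 6.82% of all genes), Mki67 and Top2a.

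All 18 replication genes lay above 0 in SRG3 cKO against RORgt KO cells, between 0.03 and 0.17, with a median of 0.07, where all genes had −0.00 and 50.7% below 0. This comparison shares its RORgt KO arrays with the one against WT, so the counts of the comparisons are not independent. Mcm3 had 11.23, 11.28 and 11.24 in SRG3 cKO arrays, all above the RORgt KO arrays given above, and differed by 0.17 (SE 0.05, limma adjusted p = 0.152). Pole differed by 0.12 (SE 0.04, limma adjusted p = 0.248), with 10.12, 10.07 and 10.02 in SRG3 cKO arrays, against 9.94, 9.92 and 9.98 in RORgt KO arrays. Neither gene's groups overlapped. The replication median was between 0.05 and 0.09 when each array was left out in turn.

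Ccnd2 had 11.72, 11.83 and 11.72 in SRG3 cKO arrays, all above the RORgt KO arrays, and differed by 0.20 (SE 0.04, limma adjusted p = 0.0739), the smallest adjusted p of any of the 52 genes in the 3 comparisons. With a variance that follows the mean signal its limma adjusted p was 0.0492, and over the 17 alternatives it ranged from 0.0492 to 0.22. Cdk6 differed the other way, by −0.22 (SE 0.07, limma adjusted p = 0.222), or with the replicate number as a block at limma adjusted p = 0.0949 (SE 0.05). It had 10.74, 10.58 and 10.54 in SRG3 cKO arrays, against 10.91, 10.74 and 10.85 in RORgt KO arrays. SRG3 cKO array 1 and RORgt KO array 2 shared a value of 10.74. Cdkn2d differed by −0.20 (SE 0.07, limma adjusted p = 0.296) with overlapping arrays. The mitosis genes had a median of 0.02 with 16 of 20 above 0, and 0.00 without RORgt KO array 2. The G1 genes had −0.03 with 4 of 10 above 0, and 0.01 without SRG3 cKO array 1 or without RORgt KO array 3.

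Mitosis genes and the genes of G1 and replication stayed close to each other in every array. Averaged over genes and set relative to the WT mean, the 18 replication genes stood at −0.04, 0.02 and −0.02 in SRG3 cKO arrays, at −0.08, −0.14 and −0.06 in RORgt KO arrays, and at −0.05, 0.04 and 0.01 in WT arrays. The RORgt KO arrays were below all others, array 3 only just below WT array 1. The 20 mitosis genes stood at −0.01, −0.02 and 0.00 in SRG3 cKO arrays, at 0.00, −0.09 and −0.02 in RORgt KO arrays, and at −0.02, 0.01 and 0.02 in WT arrays, which overlapped. The 10 G1 genes stood at −0.07, −0.03 and −0.07 in SRG3 cKO arrays, at −0.02, −0.09 and −0.03 in RORgt KO arrays, and at −0.02, 0.02 and 0.00 in WT arrays. For these the SRG3 cKO arrays lay below all WT arrays and the RORgt KO arrays overlapped them.

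The mean of the mitosis genes minus that of the 28 G1 and replication genes, relative to WT, was 0.04, −0.03 and 0.04 in SRG3 cKO arrays, 0.06, 0.03 and 0.02 in RORgt KO arrays, and 0.01, −0.03 and 0.01 in WT arrays. Group means were 0.015 ± 0.038 in SRG3 cKO and 0.039 ± 0.020 in RORgt KO cells, against 0 ± 0.025 in WT cells (SD, n = 3 each). All 3 RORgt KO arrays were above all WT arrays, array 3 only just, and the SRG3 cKO arrays overlapped both. When each array was left out in turn the SRG3 cKO value was 0.0008 to 0.037, lowest without WT array 2, and the RORgt KO value 0.025 to 0.047. No p is given for this mean, since its genes were chosen with results of these arrays known.

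**Figure D4:**
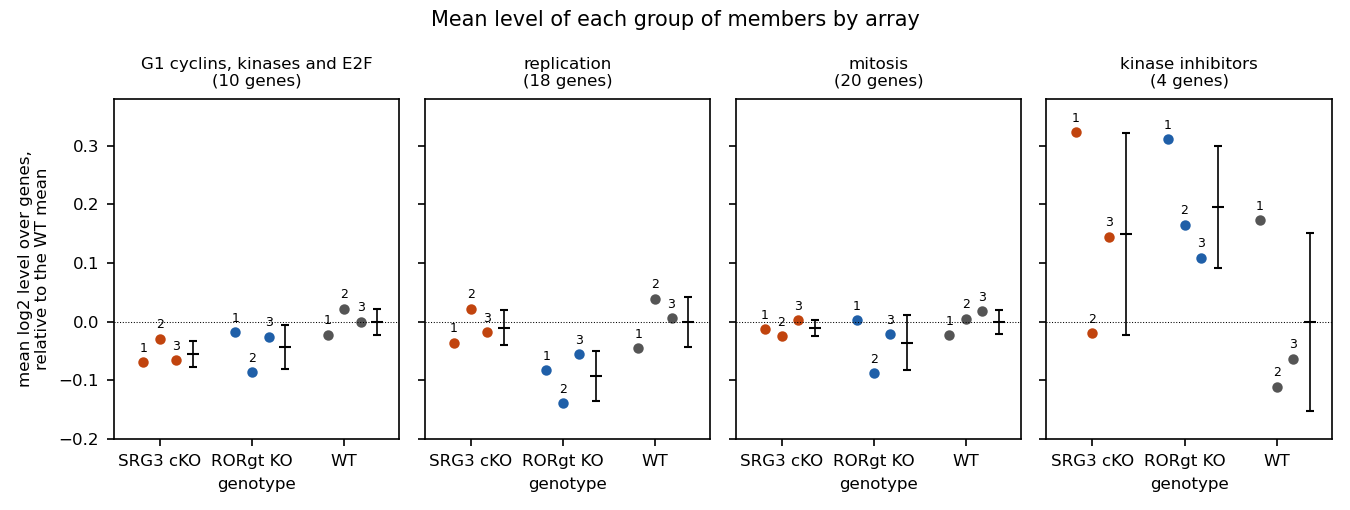
Mean log2 value per array over the genes of each role, relative to the WT mean (points, numbered by replicate) with the genotype mean and SD (bar and whiskers, n = 3), SRG3 cKO left, RORgt KO middle and WT right. Replication genes are lowest in the RORgt KO arrays (−0.14 to −0.06), and mitosis genes overlap between genotypes. The mean of the inhibitors is highest in array 1 of every genotype, where Cdkn2c is lowest.

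Other genes of the cycle, listed by role, held no call either. Of 54 further mitosis genes, 46 further replication genes and 37 further regulators measured, 0 passed in any comparison (limma, adjusted p under 0.05). In RORgt KO against WT cells the further replication genes had a median of −0.08 with 40 of 46 below 0, the mitosis genes −0.03 with 39 of 54, and the regulators −0.03 with 26 of 37, where 51.6% of all genes were below 0. An unadjusted p under 0.05 was reached by 10 of the replication genes (21.7%), 6 of the mitosis genes (11.1%) and 7 of the regulators (18.9%), against 12.7% of all genes. In SRG3 cKO against WT cells the medians were −0.01, 0.00 and −0.00, with 25 of 46, 26 of 54 and 19 of 37 below 0, where 53.6% of all genes were. Here 3 replication genes (6.52%), 2 mitosis genes (3.7%) and 8 regulators (21.6%) had an unadjusted p under 0.05, against 11.2% of all genes. In SRG3 cKO against RORgt KO cells they were 0.06, 0.04 and 0.01, with 9, 13 and 13 below 0, where 50.7% of all genes were. An unadjusted p under 0.05 was reached by 11 replication genes (23.9%), 7 mitosis genes (13.0%) and 7 regulators (18.9%), against 11.1% of all genes.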

How the data were processed

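The values analysed were log2 GeneChip probe set signals of 9 arrays as deposited by the authors in the series' value table, per the labels. Background correction, probe summary and array normalization by the authors are not given in the sources used here. Nearly equal array medians hide any change in total RNA per cell. Depth does not apply to arrays, and 3 arrays per genotype limit the precision. Of 41345 probe sets, 23521 carried 1 symbol, 1814 several and 16010 none; the last 2 kinds were left out. Symbols were updated by gene ID through RefSeq GRCm38.p6 (23328 matched), and the probe set with the highest mean stood for each of 1082 genes with several, giving 22180 genes. No sample column was unused (0).

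All 9 arrays were fitted together with limma 3.58.1 in R 4.3.3, with Benjamini-Hochberg adjustment over all genes per comparison and a threshold of 0.05. The procedure was tested on simulated data with noise drawn independently for each array. Its check of recovery covered only changes larger than any of the 52 genes, so it does not bear on changes this small. The genes, their lists, the comparisons and the alternatives were chosen with earlier results of these data known. Any of the 54 genes could be named, array values being given mainly for the 2 largest changes of a role in a comparison, and up to 4 other cell cycle genes per list and comparison only where they passed the threshold. Any other gene is marked as chosen after its values were seen, and so were some of the genes given by array. Deviations of arrays with the same replicate number correlated at 0.287, 0.186 and 0.116 for SRG3 cKO and WT. Blocked values are therefore given for some genes and counts, though not for every gene where they differ. The labels state no pairing. For RORgt KO and WT the correlations were 0.215, −0.00527 and 0.186, and for SRG3 cKO and RORgt KO 0.223, −0.00544 and 0.137. These were not taken as paired, although some blocked values are given for these comparisons too. Promoter windows came from RefSeq. Of the alternatives, 9 left out 1 array each, and the others changed the normalization, probe sets, variance model, arrays in the fit or block.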

Additional observations from a re-analysis of the deposited data

How the results depend on the processing

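In SRG3 cKO against WT cells 116 genes changed in the fit of all arrays, 13 in a fit of those 6 arrays alone, 195 with the replicate block, and 18 to 87 when each array was left out. In RORgt KO against WT cells 230 changed, 43 in the fit of those arrays alone, 374 with the replicate block and 45 to 322 with an array left out. Between SRG3 cKO and RORgt KO cells 283 changed, 142 in the fit of those arrays alone and 138 to 261 with an array left out. The count of the 52 genes that changed was 0 to 1 with an array left out in each comparison with WT, the 1 being Cdkn1b without SRG3 cKO array 2, and 1 in SRG3 cKO against RORgt KO cells with a variance trend, Ccnd2. The replicate block changed the call of none of the 52 genes. The median of G1 and replication genes in RORgt KO against WT cells was −0.0851, and −0.1252 to −0.0582 with an array left out. With an array left out, 3 small medians changed sign: replication in SRG3 cKO against WT cells, −0.0207, was 0.0039 without SRG3 cKO array 1. For SRG3 cKO against RORgt KO cells the median of G1 genes, −0.0289, was 0.0051 without SRG3 cKO array 1 and 0.0058 without RORgt KO array 3, and that of inhibitors, −0.0259, was 0.0228 without SRG3 cKO array 2. No change of a single gene followed across the alternatives changed sign. The cause of these moves was not tested, and the fits of 2 groups or without an array also used fewer arrays.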

Other observations

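Values that stood out in arrays numbered 1 went beyond Cdkn1a. Among the 52 genes, 5 were highest in array 1 of every genotype (9.62%, against 7.23% of all genes): Ccnb2, Ccnd1, Ccnd3, Cdkn1a and Cdkn2d. Lowest in array 1 of every genotype were 7 (13.5%, against 5.44% of all genes): Ccnd2, Cdc6, Cdkn2c, E2f1, Mcm6, Pcna and Rfc3. Ccng2, an atypical cyclin linked to cell cycle arrest and chosen here after its values were seen, was at 0.44 in SRG3 cKO and 0.44 in RORgt KO cells against WT (SE 0.17, limma adjusted p = 0.38 and 0.324), and at limma adjusted p = 0.0657 and 0.051 with the replicate number as a block. Mybl2, for the B-MYB factor of mitotic gene activation and likewise chosen after its values were seen, was at −0.20 in SRG3 cKO and −0.16 in RORgt KO cells against WT (SE 0.06, limma adjusted p = 0.218 and 0.277). Btg2 and Myc, also chosen after their values were seen, were at 0.26 and 0.19 in SRG3 cKO and at 0.03 and 0.07 in RORgt KO cells against WT. Btg2 had the smallest adjusted p of the further regulators in SRG3 cKO against WT cells (limma adjusted p = 0.143).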
